A study of Homo sapiens with 6 samples.

Results

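Sterol and fatty acid synthesis genes were examined in PANC-1 cells, an established human cell line from a pancreatic ductal carcinoma, after transfection with siRNA against CD73. The genes were a fixed list of 44 symbols covering the SREBP regulators, the sterol pathway, sterol traffic and fatty acid synthesis, matched to the Ensembl identifiers of the deposited tables. All 44 were found among the 30735 listed genes, and 41 of them passed the filter on low values, a level of 1 RPKM or more in 3 or more of the 6 samples. The values were read here as RPKM, reads per kilobase of gene scaled to the size of the library, a unit that the sources used here do not state.

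The series holds 3 samples transfected with CD73 siRNA and 3 with negative control siRNA, numbered 1 to 3 in each group. Both groups were wild-type PANC-1 cells transfected with Lipofectamine 3000 in serum-free medium. The time of harvest is not given, and the methods give the CD73 siRNA as a single product without a sequence. The study describes the 3 knockdown samples as separate experiments, and the labels do not say more about how the cultures were kept apart. The comparison asks which of the sterol and fatty acid genes differed between CD73 knockdown cells and negative controls, and which differed between the replicate numbers.

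Cholesterol is made from acetyl-CoA in a long series of steps. The early steps lead through mevalonate to farnesyl diphosphate and squalene. The late steps close the ring system and trim lanosterol to cholesterol in the membrane of the endoplasmic reticulum. The genes of these enzymes share the transcription factors SREBP-1 and SREBP-2, which are carried to the Golgi by SCAP and held back by the INSIG proteins when sterols are plentiful. Fatty acid synthesis uses the same acetyl-CoA and is driven mainly by SREBP-1.

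Promoter sequences in the reference (RefSeq, GRCh38.p14, 250 bases before to 50 after the start of the gene) matched 39 of the 44 genes. They are shown because SREBPs bind a sterol response element and act together with the factor NF-Y, which binds CCAAT boxes. The element TCACCCCAC, searched on both strands, was in 1 of the 39 promoters, that of SREBF2, and in 0.43% of 35116 promoters. The looser form TCACNCCAC, which contains every match of the first, was in the same promoter alone and in 1.13% of all promoters. The E-box TCACGTGA, another sequence that SREBPs can bind, was in the promoter of INSIG1 alone (2.56% of the 39). It was in 0.98% of all promoters and in 2% of those matched to genes in the test, near the share of the 39. For TCACCCCAC and TCACNCCAC the shares among promoters matched to genes in the test were 0.363% and 1.07%. The box CCAAT, in either orientation, was in 24 of the 39 promoters (61.5%), against 34.6% of all promoters and 37.3% of the 9087 promoters matched to genes in the test. By step, it was in 8 of 9 late sterol promoters, 4 of 6 early sterol promoters and 5 of 9 fatty acid synthesis promoters. These are matches of letters and were not tested for binding. In the following windows, written 5′ to 3′ on the strand of the gene, capitals mark the matched letters, and ATTGG is CCAAT on the other strand.
SREBF2, chr22:41832962-41832991, forward strand: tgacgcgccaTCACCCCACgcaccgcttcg
INSIG1, chr7:155297811-155297840, forward strand: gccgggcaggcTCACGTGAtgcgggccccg
MSMO1, chr4:165327581-165327610, forward strand: caactgcacagaCCAATcaccgcgccgaga
HMGCS1, chr5:43313495-43313524, reverse strand: ctaccggccgcgATTGGctgtgggagccac
DHCR7, chr11:71448470-71448499, reverse strand: caggctcctcgaCCAATcacggggcgcgga
SC5D, chr11:121292703-121292732, forward strand: cgccggtcgctgATTGGctggccgctccag
SCD, chr10:100347035-100347064, forward strand: aattcccttcggCCAATgacgagccggagt
These windows belong to SREBF2 and INSIG1, which hold the sterol element and the E-box, to MSMO1, the sterol gene with the lowest p after CD73 siRNA, and to 4 genes that differed between replicate numbers.

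The target gene checked the labels. NT5E, which encodes CD73, was at 3.36, 6.85 and 8.22 RPKM in CD73 siRNA samples 1, 2 and 3 and at 13.96, 13.87 and 17.14 RPKM in control samples 1, 2 and 3, without overlap. Library totals read from the values lay between 15009113 and 16836207 reads. Between 106 and 19581 reads stood behind each value of the 41 tested genes. Of the marker genes of the line, KRT8 (30.01 to 158 RPKM), KRT18 (36.27 to 87.03 RPKM) and VIM (182.9 to 263.0 RPKM) were high, KRT19 (3.59 to 5.39 RPKM) and EPCAM (0.582 to 1.71 RPKM) were low, and the ductal keratin KRT7 was near 0 (at most 0.107 RPKM). The KRT8 mean was 40.99 RPKM after CD73 siRNA and 104.5 RPKM after control siRNA, and its part in the results was not tested. Of 11 markers of leukocytes, endothelium, fibroblasts, adipocytes and hepatocytes, 3 were not listed and 7 were at most 0.231 RPKM. The remaining one, COL1A1, was at 8.97 to 19.06 RPKM, with both fibroblast markers LUM (at most 0.0415 RPKM) and DCN low or not listed. In bulk RNA, fewer cells that express a gene and less RNA per cell cannot be told apart.

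Most of the 41 genes differed little between CD73 knockdown cells and negative controls. At an unadjusted p below 0.01 in limma, fitted across 12527 genes on log2(RPKM + 1), 1 of the 41 was lower and 0 were higher. The share of 2.44% is near that of all tested genes past this threshold, 3.13% in either direction, 1.82% higher and 1.31% lower. None had an adjusted p below 0.05 in limma (0 of 41, smallest 0.315, against 0.00798% of all genes). The silenced gene NT5E did not reach it either (adjusted p = 0.303 in limma), so this threshold could miss real differences. An unadjusted p below 0.05 was found for 2 genes, and the share of all genes past 0.05 was not counted. The median log2 difference, knockdown minus control, was 0.04 over the 41 genes and 0.01 over all tested genes. Fully separated groups were found for 1 gene that was higher (2.44%, against 10.3% of all genes) and 2 that were lower (4.88%, against 8.07%), where 18.4% of all genes were separated in either direction. The difference had the same sign in all 3 pairs of equal number for 9 genes that were higher (22.0%, against 27% of all genes) and 11 that were lower (26.8%, against 24.5%). For 39 of the 41 genes the 95% interval of the difference lay within 2-fold either way on this scale, and for 22 within 1.5-fold. The shares of all genes within these limits were not counted, so these counts do not set the 41 genes apart. Adding 1 before taking logs understates the differences of low genes.

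**Figure D1:**
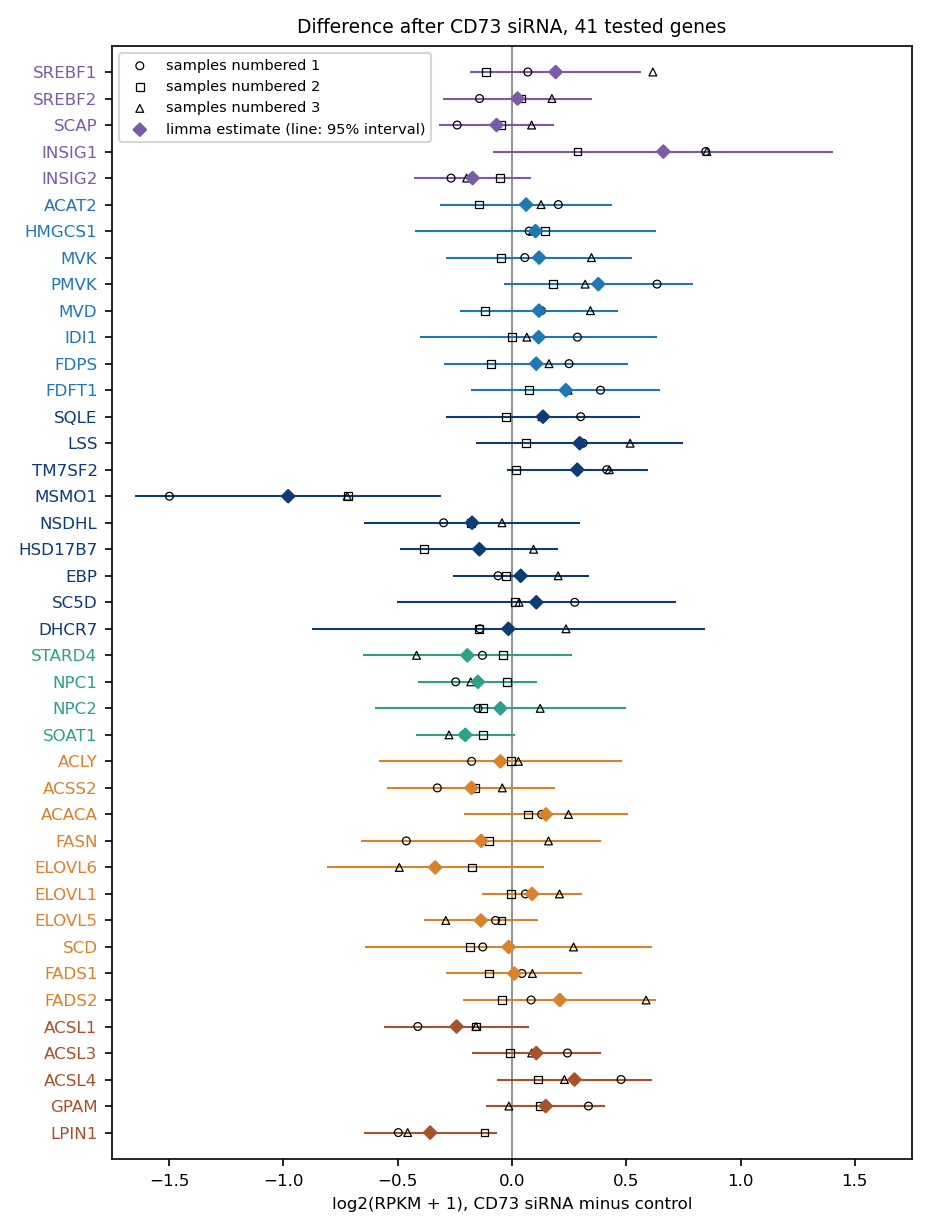
Difference in log2(RPKM + 1) between CD73 siRNA and control for the 41 tested genes in pathway order, coloured by step (SREBP control purple, early sterol light blue, late sterol dark blue, sterol traffic green, fatty acid synthesis orange, fatty acid activation and use brown). Diamonds and lines are the limma estimate with its 95% interval, and open symbols are the differences between samples of the same number. The MSMO1 estimate, at -0.98, lies farthest from 0.

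Among the SREBP regulators, INSIG1 was the only one with a difference over 0.2 on the log2 scale. INSIG1 (ENSG00000186480, chr7:155297776-155310235) encodes the protein that keeps SCAP in the endoplasmic reticulum and is itself an SREBP target. It was at 18.63, 7.19 and 15.67 RPKM in CD73 siRNA samples 1, 2 and 3, and at 9.91, 5.72 and 8.23 RPKM in control samples 1, 2 and 3. Knockdown sample 2 lay within the range of the controls, so the groups overlapped, but each knockdown sample was above the control of the same number. The log2 difference was 0.66 (standard error 0.323, p = 0.0742 and adjusted p = 0.451 in limma, exact permutation p = 0.3). With the replicate number as a block, p was 0.0017 in limma (adjusted p = 0.113), and 7.57% of all genes were then past 0.01, 4.27% higher and 3.3% lower. Without CD73 siRNA sample 2 the difference was 1.04 and p was 0.00123 in limma, whereas without CD73 siRNA sample 1 it was 0.41 and p was 0.248.
INSIG2, its paralog with the same role, was lower in each pair, by -0.27, -0.05 and -0.20 on the log2 scale. Its groups overlapped, and p was 0.159 in limma.
SREBF2, which encodes SREBP-2, averaged 19.2 ± 3.43 RPKM after CD73 siRNA against 18.8 ± 1.92 RPKM (SD, n = 3 each). SREBF1, which encodes SREBP-1, was at 13.79, 10.48 and 15.13 RPKM after CD73 siRNA against 13.10, 11.41 and 9.53 RPKM, and the pair numbered 3 alone differed by 0.62 on the log2 scale. SCAP, the escort of the SREBPs, averaged 12.1 ± 1.11 and 12.7 ± 0.930 RPKM. All 3 had overlapping groups.

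All 8 early sterol genes had a higher mean in knockdown cells, by small amounts that did not pass the test. Of all tested genes, 6511 of 12527 had a positive log2 difference. The 8 genes share regulators and are not independent observations, so their common direction is not a test. Their log2 differences ranged from 0.06 (ACAT2, the cytosolic thiolase that makes acetoacetyl-CoA) to 0.38 (PMVK, phosphomevalonate kinase), with a median of 0.12. Within the pairs numbered 1, 2 and 3 the median was 0.23, -0.02 and 0.20. The difference had the same sign in all pairs for 3 of the 8 genes, HMGCS1, PMVK and FDFT1.
PMVK was at 21.72, 26.26 and 22.92 RPKM in the knockdown samples and at 13.64, 23.09 and 18.17 RPKM in the controls. Control sample 2 was above knockdown samples 1 and 3, so the groups overlapped (p = 0.0682 in limma, exact permutation p = 0.3). Without control sample 2, p was 0.00753 in limma at a difference of 0.55, and without control sample 1 p was 0.217 at a difference of 0.19.
FDFT1, the squalene synthase that commits farnesyl diphosphate to sterols, was at 19.38, 13.15 and 20.24 RPKM against 14.59, 12.45 and 16.92 RPKM. Its groups overlapped, with a log2 difference of 0.24 (p = 0.226 in limma, exact permutation p = 0.3). HMGCS1, the synthase of HMG-CoA, averaged 16.9 ± 4.11 and 15.7 ± 4.21 RPKM (SD, n = 3 each). Its pairs differed by 0.08, 0.14 and 0.09 on the log2 scale, far less than the samples of a group differed from each other.
The remaining early genes, MVK and MVD (mevalonate kinase and mevalonate diphosphate decarboxylase), IDI1 (isopentenyl diphosphate isomerase) and FDPS (farnesyl diphosphate synthase), had log2 differences from 0.11 to 0.12. All had overlapping groups. Exons of other listed genes cover 18.6% of the exon bases of FDPS, 14.95% of HMGCS1 and 14.8% of IDI1. For ACAT2, listed genes cover 9.2% and annotated genes of any kind 52.3%. The sources used here do not say how reads in these stretches were counted or whether strand information was used, so these levels are less certain.

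Among the late sterol genes, MSMO1 was the only one past p below 0.01, and it was lower after CD73 siRNA. MSMO1 (ENSG00000052802, chr4:165327623-165343160 on the forward strand) encodes the methylsterol oxidase that begins the removal of the 4-methyl groups of lanosterol derivatives. It was at 13.72, 12.02 and 22.08 RPKM in CD73 siRNA samples 1, 2 and 3 and at 40.62, 20.42 and 37.05 RPKM in controls 1, 2 and 3. Knockdown sample 3 was above control 2, so the groups overlapped, while each knockdown sample was below the control of its own number. On average 15.9 ± 5.38 RPKM stood against 32.7 ± 10.8 RPKM (SD, n = 3 each), or 48.8% of control. The log2 difference was -0.98 (standard error 0.290, 95% interval -1.65 to -0.31, p = 0.00964 and adjusted p = 0.315 in limma, exact two-sided permutation p = 0.2). The smallest exact p that 3 samples against 3 allow is 0.1.
Within the pairs, MSMO1 differed by -1.499, -0.72 and -0.72 on the log2 scale. With the replicate number as a block, p was 0.000659 in limma (adjusted p = 0.113). The unadjusted p lies close to the threshold. It was above 0.01 under 8 of 11 alternatives, the highest being 0.0665 without moderation, and among them were a pseudocount of 0.1, where p was 0.0102 in limma, and omission of CD73 siRNA sample 1 or 2 or control sample 1 or 3, where p was at most 0.0412. The difference stayed negative under all 11, from -1.28 (without control sample 2) to -0.80 (without control sample 1). Between 547 and 1884 reads stood behind each value, and no other annotated gene shares its exons.

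The enzymes that act with MSMO1 in removing the 4-methyl groups had smaller differences. NSDHL, the decarboxylating sterol dehydrogenase, was at 31.82, 21.71 and 32.70 RPKM after CD73 siRNA against 39.39, 24.75 and 33.75 RPKM. Its groups overlapped, and the log2 difference was -0.17 (95% interval -0.65 to 0.30). HSD17B7, the ketosteroid reductase of the same reaction, was at 4.21, 2.91 and 4.46 RPKM against 4.73, 4.11 and 4.12 RPKM, a difference of -0.14 (95% interval -0.49 to 0.20).
Taken as a ratio within each sample, MSMO1 was 0.431, 0.554 and 0.675 of NSDHL in knockdown samples 1, 2 and 3 and 1.03, 0.825 and 1.10 of NSDHL in controls. These ratios did not overlap between the groups (exact two-sided permutation test, p = 0.1, the smallest possible). The same held for the ratio of MSMO1 to each of the 8 other tested late sterol genes, NSDHL among them. These ratios all share the MSMO1 values, so they are not 8 separate tests. It also held for 32.4% of the 12526 ratios of MSMO1 to any other tested gene. The ratio was not among the planned comparisons, and MSMO1 by itself had overlapping groups (exact permutation p = 0.2). Both MSMO1 and NSDHL were lowest at number 2 in each group, which a ratio partly removes.

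**Figure D2:**
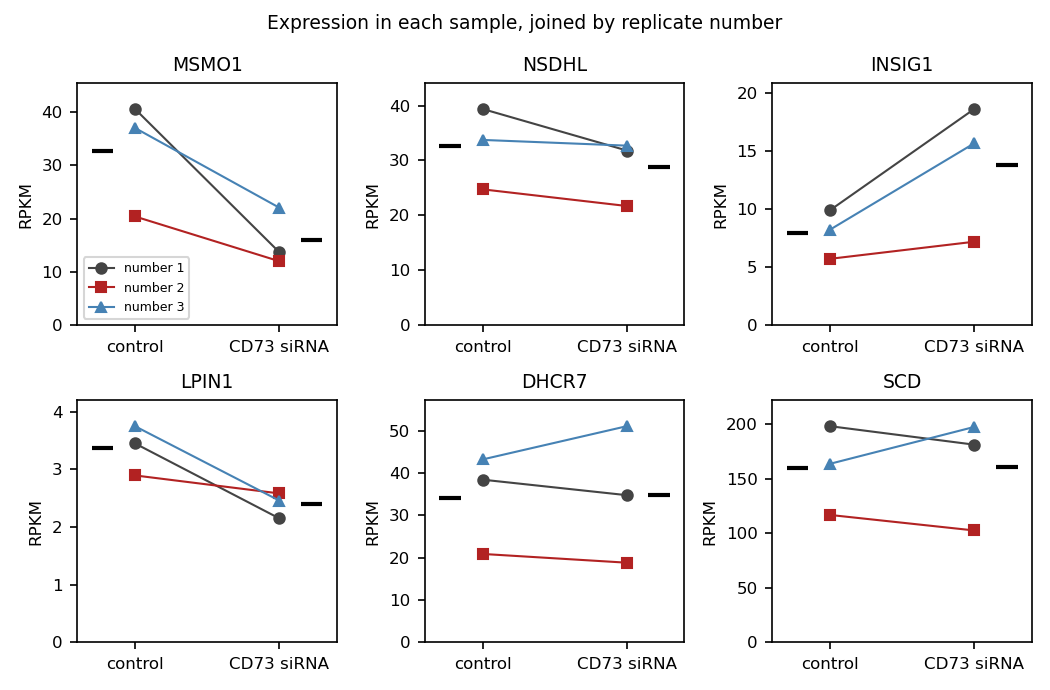
RPKM of 6 genes in control and CD73 siRNA samples, with samples of the same replicate number joined and short bars at the group means. MSMO1 declines in all 3 pairs, from 40.62 to 13.72, from 20.42 to 12.02 and from 37.05 to 22.08 RPKM, while DHCR7 and SCD are separated by replicate number rather than by treatment.

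The other late sterol genes had no difference past the threshold. TM7SF2, a sterol C14-reductase, was the only one of the 41 genes with every knockdown sample above every control. It was at 4.38, 3.32 and 3.73 RPKM against 3.04, 3.27 and 2.52 RPKM, but the samples numbered 2 were nearly level. Its log2 difference was 0.29 (p = 0.0653 in limma, exact permutation p = 0.1).
LSS, the lanosterol synthase that closes the rings, was at 15.87, 11.53 and 20.67 RPKM after CD73 siRNA against 12.60, 11.02 and 14.15 RPKM. Its groups overlapped, with a log2 difference of 0.30 (p = 0.17 in limma, exact permutation p = 0.3). SQLE, the squalene epoxidase just before LSS, averaged 31.5 ± 7.08 and 28.3 ± 4.22 RPKM (SD, n = 3 each), a log2 difference of 0.14.
EBP (the sterol isomerase), SC5D (the C5-desaturase) and DHCR7 (the reductase that makes cholesterol in the last step of one branch) had log2 differences of 0.04, 0.11 and -0.02. The median over the 9 tested late genes was 0.04, with 5 positive and 4 negative log2 differences. Within the pairs numbered 1, 2 and 3 it was -0.06, -0.03 and 0.13. Leaving out single samples moved this median between -0.11 (without control sample 2) and 0.33 (without CD73 siRNA sample 2), so its sign was not fixed.
CYP51A1, the lanosterol 14-demethylase, did not pass the filter. It was at 0.519, 0.530 and 0.904 RPKM after CD73 siRNA against 0.689, 0.743 and 0.687 RPKM, on 30 to 55 reads. In GENCODE release 29 another gene on the same strand, AC000120.2, shares 79.3% of the exon bases of CYP51A1, so its level depends on how reads in shared exons were counted and is uncertain.

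The 4 tested genes of sterol traffic all had lower means in knockdown cells, with a median log2 difference of -0.17. Within the pairs numbered 1, 2 and 3 the median was -0.18, -0.08 and -0.23. Of all tested genes, 6016 of 12527 had a negative log2 difference. The common direction of 4 related genes is not a test. SOAT1, which esterifies cholesterol for storage, was at 10.30, 10.53 and 10.47 RPKM in the knockdown samples and at 12.09, 11.58 and 12.89 RPKM in the controls. The groups did not overlap, and the difference was small, at -0.20 (standard error 0.0941, p = 0.0616 in limma, exact permutation p = 0.1).
STARD4, a cytosolic sterol carrier, was at 3.28, 2.09 and 2.64 RPKM against 3.69, 2.18 and 3.87 RPKM. Its groups overlapped (log2 difference -0.20, p = 0.353 in limma, exact permutation p = 0.5). NPC1 and NPC2, which move cholesterol out of lysosomes, had log2 differences of -0.15 and -0.05. The exporters ABCA1 (0.372 to 0.718 RPKM) and ABCG1 (0.468 to 0.866 RPKM) were below the filter in both groups.

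The fatty acid synthesis genes included SCD, FASN and ELOVL5, the 3 with the highest levels among the 44 genes, and none of the 10 passed the threshold. SCD, the stearoyl-CoA desaturase, averaged 160.5 ± 50.8 RPKM after CD73 siRNA against 159.7 ± 40.9 RPKM (SD, n = 3 each). FASN, the fatty acid synthase, averaged 91.7 ± 20.8 and 101.5 ± 27.8 RPKM, and its pairs differed by -0.46, -0.10 and 0.16 on the log2 scale. ELOVL5, an elongase of polyunsaturated chains, averaged 90.6 ± 8.11 and 99.7 ± 8.53 RPKM. The spread of SCD and FASN over the samples of a group was larger than their difference between groups.
ELOVL6, the elongase of palmitate, had the largest difference of these 10 genes. It was at 1.398, 0.923 and 1.51 RPKM after CD73 siRNA against 2.03, 1.17 and 2.54 RPKM, lower in each pair with overlapping groups (log2 difference -0.34, p = 0.141 in limma, exact permutation p = 0.3). FADS2, the delta-6 desaturase, was at 13.71, 9.69 and 16.20 RPKM against 12.89, 10.02 and 10.45 RPKM. Its pairs differed by 0.08, -0.04 and 0.59 on the log2 scale, with overlapping groups.
ACLY (the citrate lyase that supplies cytosolic acetyl-CoA), ACSS2 (which makes acetyl-CoA from acetate), ACACA (acetyl-CoA carboxylase), ELOVL1 (the elongase of very long saturated chains) and FADS1 (the delta-5 desaturase) had log2 differences from -0.18 to 0.15. The median of the 10 genes was -0.03.

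The genes that activate fatty acids and pass them into glycerolipids had differences in both directions, none past the threshold. LPIN1, a phosphatidate phosphatase of triglyceride synthesis, was at 2.15, 2.58 and 2.46 RPKM after CD73 siRNA against 3.45, 2.89 and 3.75 RPKM. The groups did not overlap, with a mean of 71.3% of control and a log2 difference of -0.36 (standard error 0.126, p = 0.0218 in limma, exact permutation p = 0.1). It did not pass the threshold of 0.01 under any alternative run (the lowest limma p was 0.0123, without control sample 2).
ACSL4, the acyl-CoA synthetase that prefers arachidonate, was at 19.97, 18.26 and 23.39 RPKM against 14.06, 16.80 and 19.81 RPKM. It was higher in each pair with overlapping groups (log2 difference 0.27, p = 0.0997 in limma, exact permutation p = 0.2). ACSL1 and ACSL3, which activate long-chain fatty acids, had differences of -0.24 and 0.11, and GPAM, which starts glycerolipid synthesis, had 0.15.

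The larger pattern in these genes followed the replicate number. In both groups, the sample numbered 2 was the lowest of its group for 28 of the 41 genes (68.3%), against 16.8% of all tested genes. This pattern rests on 1 sample in each group. The genes share regulators and are not independent observations, so their number does not measure how well the pattern would repeat. Number 1 was the lowest in both groups for 3 genes (14% of all genes) and number 3 for 1 gene (21.3% of all genes). For number 2 the share was 6 of 8 for early sterol genes, 8 of 9 for late sterol genes and 8 of 10 for fatty acid synthesis genes. It was 3 of 5 for SREBP control, 2 of 4 for sterol traffic and 1 of 5 for fatty acid activation and use. A limma F test over the replicate numbers with treatment in the model, chosen after the values were seen, gave p below 0.01 for 12 of the 41 genes (29.3%, against 9.27% of all genes). Without moderation of the variances the count was 1 of 41 (2.44%, against 2.7% of all genes). An adjusted p below 0.05 was reached by 5 of them, against 1.82% of all genes. The labels do not say what the number stands for.

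**Figure D3:**
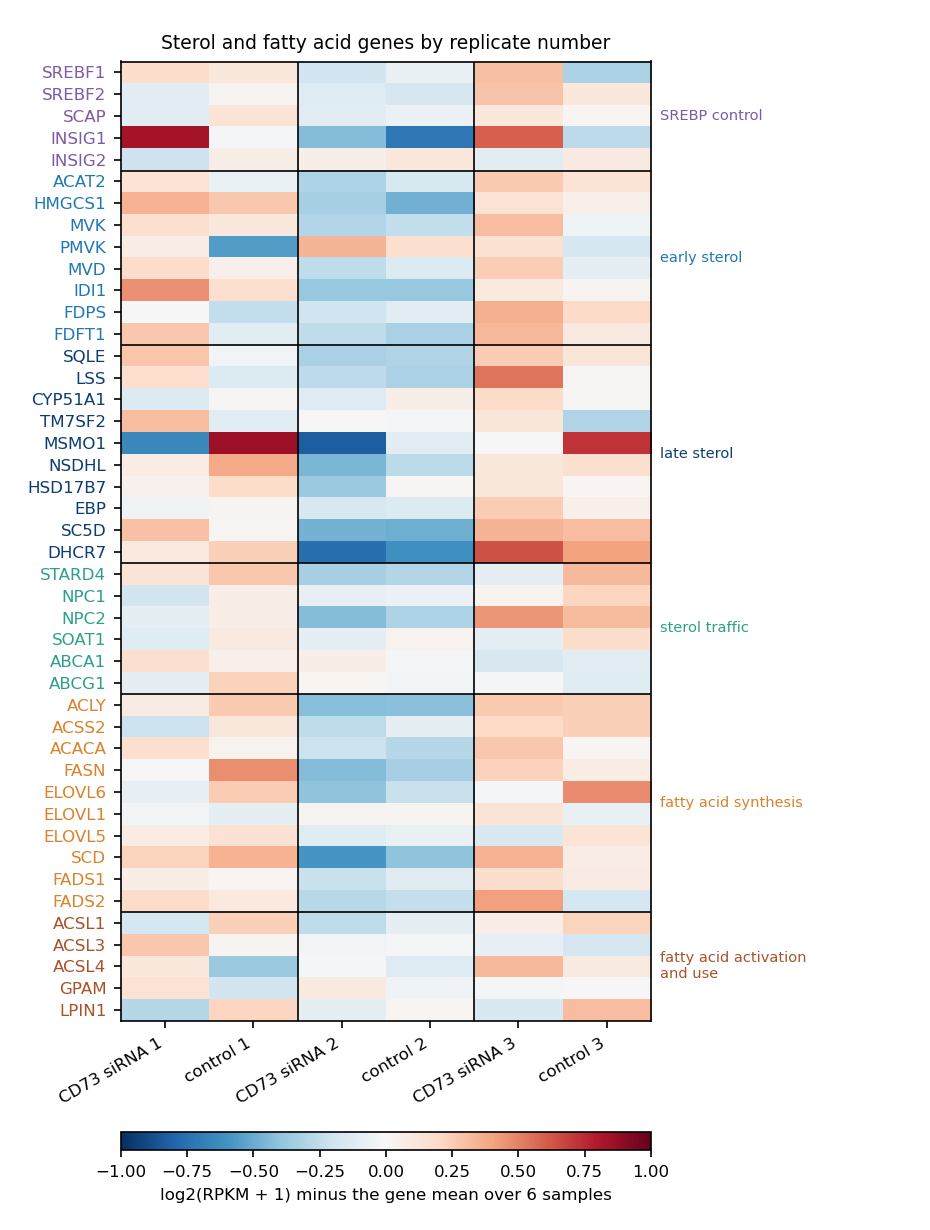
Heatmap of all 44 genes in pathway order (rows) by sample (columns, CD73 siRNA beside control of the same number), coloured by log2(RPKM + 1) minus the mean of the gene over the 6 samples. The middle pair of columns, the samples numbered 2, is blue for most sterol and fatty acid synthesis genes, and MSMO1 differs within each pair.

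DHCR7 had the lowest p of the 41 genes in the F test. It was at 34.75, 18.82 and 51.03 RPKM in CD73 siRNA samples 1, 2 and 3 and at 38.41, 20.88 and 43.18 RPKM in control samples 1, 2 and 3 (F test adjusted p = 0.0261 in limma). Sample 2 held 43.9% of the mean of samples 1 and 3 in knockdown cells and 51.2% in controls, whereas the treatment means were 34.9 and 34.2 RPKM.
SC5D was at 19.00, 10.75 and 19.71 RPKM after CD73 siRNA against 15.54, 10.64 and 19.27 RPKM (F test adjusted p = 0.039 in limma). HMGCS1 was at 20.56, 12.46 and 17.70 RPKM against 19.47, 11.18 and 16.58 RPKM (F test adjusted p = 0.039 in limma). In both genes the samples numbered 2 were below the 4 others.
SCD was at 181.3, 102.7 and 197.6 RPKM against 198.3, 116.9 and 163.8 RPKM (F test adjusted p = 0.0499 in limma). ACLY was at 50.29, 35.07 and 57.21 RPKM against 56.98, 35.17 and 56.10 RPKM (F test adjusted p = 0.0403 in limma). These enzymes of fatty acid and acetyl-CoA supply thus had their lowest samples at the same number as the sterol genes.
The other 7 of the 12 were NPC2, INSIG1, IDI1, NSDHL, SQLE, FDFT1 and FASN, with adjusted p from 0.0531 (NPC2) to 0.105 (FASN) in limma. MSMO1 was not among them, with an F test p of 0.0127 in limma, just above the threshold (adjusted p = 0.118). Its lowest sample was still number 2 in both groups, at 67.1% of the mean of samples 1 and 3 in knockdown cells and 52.6% in controls. PMVK went the other way, with its highest sample of each group at number 2.
Among the SREBP regulators, INSIG1 in sample 2 was at 41.9% of the mean of samples 1 and 3 in knockdown cells and at 63.0% in controls. SREBF2 in sample 2 was at 84.7% of the mean of samples 1 and 3 in knockdown cells and at 84.1% in controls. SREBF1 was at 72.4% and 100.9%, and SCAP at 92.1% and 90.4%. INSIG2 went the other way, at 120.3% and 103.5%, with its highest sample of each group at number 2.

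**Figure D4:**
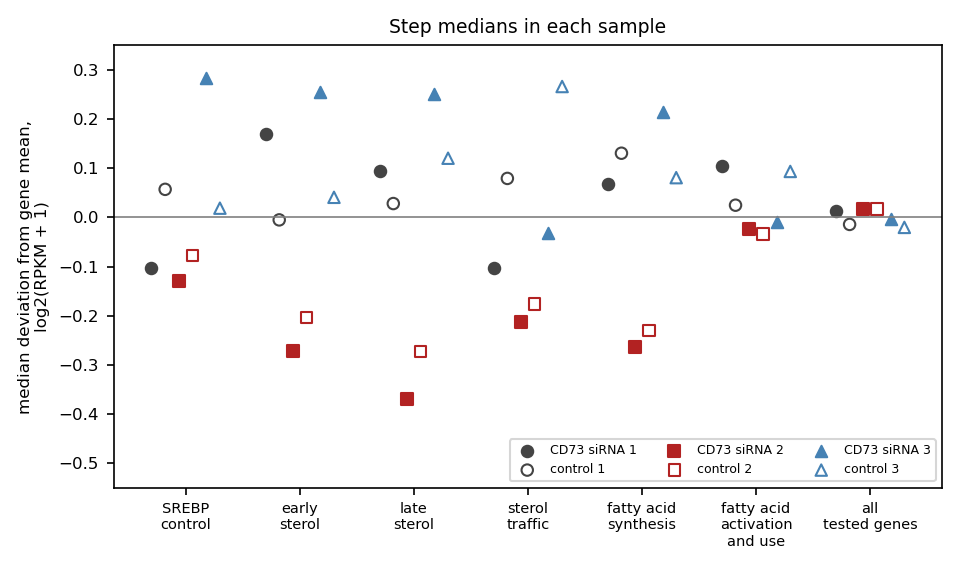
Median deviation from the gene mean in log2(RPKM + 1) for the tested genes of each step and for all 12527 tested genes, in each sample (filled, CD73 siRNA; open, control; red squares, number 2). In the late sterol step the samples numbered 2 lie at -0.37 and -0.27, while over all tested genes they lie at 0.02 in both groups.

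For the late sterol genes, the median deviation from the gene mean was -0.37 in CD73 siRNA sample 2 and -0.27 in control sample 2, with 0.10, 0.25, 0.03 and 0.12 in CD73 siRNA samples 1 and 3 and control samples 1 and 3. The early sterol genes stood at -0.27 and -0.20 in the samples numbered 2, and the fatty acid synthesis genes at -0.26 and -0.23. Over all tested genes the samples numbered 2 were at 0.02 in both groups. Their library totals, 15739441 and 15528967 reads, lay within the range of the other samples.

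Other genes of lipid metabolism, 91 in 5 hand-written lists, were read from the same fit, and 82 were tested. At p below 0.01, 5 rose and 2 fell, 8.54% of those tested beside 3.13% of all genes, and none had an adjusted p below 0.05 in limma (0.303 to 0.313 for the 7). The lists were chosen with earlier results of these data known, so the larger share is no test of these genes. Groups did not overlap for 9 of the 82 that were higher and 5 that were lower, beside 10.3% and 8.07% of all genes.
Among 23 SREBP and LXR regulators, 1 rose, PRKAA2, a catalytic subunit of the energy sensor AMPK, from 2.91 ± 0.551 to 5.02 ± 0.298 RPKM (SD, n = 3 each).
In the list of 11 genes headed isoprenoid side branches, 2 rose and 1 fell. ICMT, which methylates prenylated proteins, rose from 24.0 ± 3.98 to 34.97 ± 2.89 RPKM. ACAT1, the mitochondrial thiolase of ketone and isoleucine metabolism, rose from 14.4 ± 3.28 to 21.5 ± 1.41 RPKM. It was on this list although it is not an enzyme of these branches. PDSS1, which builds the side chain of ubiquinone, fell from 7.12 ± 0.926 to 5.05 ± 0.334 RPKM (SD, n = 3 each).
Of 14 tested genes of sterol accessory function and traffic, 1 fell, NCEH1, a cholesterol ester hydrolase, from 86.0 ± 4.53 to 66.8 ± 5.69 RPKM. Of 25 tested genes of other fatty acid and glycerolipid synthesis, 1 rose, ME1, the malic enzyme that supplies cytosolic NADPH, from 6.201 ± 1.64 to 11.0 ± 2.21 RPKM. Of 9 tested genes of fatty acid oxidation, 1 rose, SLC25A20, the carnitine carrier of the mitochondrial membrane, from 6.16 ± 1.01 to 10.1 ± 1.07 RPKM (SD, n = 3 each). The count of 7 was 2 without CD73 siRNA sample 1 and 2 without CD73 siRNA sample 3.
The samples numbered 2 were the lowest of both groups for 20 of the 82 genes (24.4%). By list this held for 0 of 11 genes on the isoprenoid list, 4 of 23 regulators and 1 of 9 oxidation genes. It held for 6 of 14 sterol accessory genes and 9 of 25 genes of other fatty acid and glycerolipid synthesis.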

How the data were processed

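RNA-seq values of 6 PANC-1 samples, 3 transfected with CD73 siRNA and 3 with negative control siRNA, were analysed, with groups and replicate numbers taken from the sample titles. For every sample the authors deposited a list of 30735 genes and a single expression value for each, read here as RPKM. The submitters' processing notes name bcl2fastq, Bowtie2 2.2.3, HTSeq 0.6.0 and hg38 without roles. The annotation and unit are not given in the sources used here. After multiplication by the merged exon length of GENCODE release 29, 95.1% to 95.2% of genes worth fewer than 1000 reads fell on whole reads (tolerance 0.02), which gave the library totals. The handling of reads in shared exons is not stated and could change single levels.

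The 12527 genes that reached 1 RPKM in 3 or more samples were compared on log2(RPKM + 1) with limma 3.58.1 (eBayes with a trend, two-sided) in R 4.3.3, with Benjamini-Hochberg adjustment. Calls used an unadjusted p below 0.01. The study also used 0.01, without saying whether its p was adjusted. Single genes had an exact permutation test. Deviations from the group means correlated at 0.197, 0.481 and 0.553 between same-numbered samples across genes (different numbers, -0.439 to -0.00637). The numbers were therefore treated as pairs in an alternative fit with a block. Values per sample are given for genes past the threshold, with groups that did not overlap, and for the 2 largest differences of each step, with MSMO1. The genes shown for the replicate number were chosen after their values were seen. Members and lists were chosen with earlier results of these data known. The fits were also run on simulated data with planted shifts larger than any difference of the sterol and fatty acid genes and with independent noise in each sample. Those runs do not show how the fits behave for smaller differences or for samples that vary together. Figures were drawn with matplotlib 3.10.9.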

Additional observations from a re-analysis of the deposited data

How the results depend on the processing

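For 13 sterol and fatty acid genes given with their values, 131 of 143 alternative values kept both direction and side of the threshold, and 0 reversed. The 1 gene called lower, MSMO1, became 0 with a pseudocount of 0.1, with no filter on low values and with median-centred samples, where p was 0.0102, 0.022 and 0.0104 in limma. Without moderation the 1 lower gene was SOAT1 in place of MSMO1. Over single samples left out, the count of lower genes ranged from 0 to 1 and that of higher genes from 0 to 1. With the replicate block, 1 gene was called higher (INSIG1) and 1 lower (MSMO1), and the block changed no other call among the 13.

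Over all tested genes, the count at p below 0.01 was 392, with 948 under the replicate block, 216 without moderation, and from 110 (without CD73 siRNA sample 1) to 791 (without control sample 2) when single samples were left out. The count at an adjusted p below 0.05 was 1, with 0 at a pseudocount of 0.1, 0 with no filter, 0 under the replicate block, 2 without moderation and 0 to 3 over samples left out (3 without control sample 2).

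Median differences of the steps over samples left out ranged from 0.040 to 0.29 (early sterol), -0.11 to 0.33 (late sterol), -0.23 to -0.082 (sterol traffic) and -0.22 to 0.11 (fatty acid synthesis). The count of genes that differed by replicate number was 12, with 7 when no filter was applied (3.05% of all genes) and 1 of 41 without moderation (2.44%, against 2.7%). The 7 other lipid genes were 2 without moderation and 2 to 8 over samples left out. The causes were not tested. With 3 samples a group, an exact test of a single gene cannot go below 0.1.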
